A study of Mus musculus with 93 samples.

Results

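Hepatic gene expression was compared between PWK/PhJ and C57BL/6J mice fed a western diet (WD). The comparison used 7 PWK/PhJ and 8 C57BL/6J livers, 15 of the 93 livers of 7 inbred strains that were sequenced, and took in all 19110 of the 53465 annotated genes that had enough reads to be tested. The mice of both strains were unmodified males kept at thermoneutrality (30 °C) from the age of 6 weeks, given WD with 40% of its energy as fat from week 7, and killed at 24 weeks, after 17 weeks on the diet and a fast of 4 h. The same strains on the matched control diet (CD, 10% of energy as fat; 6 PWK/PhJ and 8 C57BL/6J mice, otherwise kept alike) were used to ask whether a strain difference was also seen in other mice, and whether it depended on the diet. Both strains came in 2 cohorts.

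C57BL/6J is the classical laboratory strain whose DNA gave the mouse reference genome, and its males are widely used in diet studies of fatty liver. PWK/PhJ is an inbred strain derived from wild mice of the subspecies Mus musculus musculus, and it differs from the classical strains at far more positions of the genome than these differ among themselves. On a fat-rich diet the liver stores triglyceride in lipid droplets. In some animals immune cells then accumulate and stellate cells, the collagen-producing cells of the liver, deposit matrix.

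Genes that go with the strain, sex and tissue labels were looked at in the WD mice, and the diet label was not checked. Nnt, the mitochondrial transhydrogenase that carries a deletion in C57BL/6J, lies at chr13:119335448-119408997 (GRCm38), and it was, over the whole gene, between 136 and 160 CPM (read counts scaled to a common library size) in the PWK/PhJ mice on WD and between 55.9 and 86.4 CPM in the C57BL/6J mice. The log2 fold change (log2FC, here always PWK/PhJ minus C57BL/6J) of Nnt was 0.99 ± 0.07 (SE, adjusted p = 4.62e-23). The deleted part of the gene was not counted apart, so this value alone does not establish the strain. The Y-linked Ddx3y was found in every mouse on WD, between 50.3 and 86.3 CPM. Xist, another gene that goes with sex, was not alike in the strains. It was higher in PWK/PhJ on WD (log2FC 4.197, adjusted p = 2.11e-15, without C57BL/6J WD replicate 3). The cause of this difference was not tested. The summed level of 22 hepatocyte markers lay between 102467 and 140938 CPM in the PWK/PhJ livers on WD and between 104556 and 140222 CPM in the C57BL/6J livers, so the ranges of this sum almost coincided.

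All reads were mapped to the genome of C57BL/6J, which is one of the strains compared. On WD the share of reads that found no place on that genome was lowest at 5.48%, had a median of 8.26% and was highest at 8.73% in PWK/PhJ, against 2.14%, 2.73% and 3.87% in C57BL/6J. The ranges did not overlap, and the means (7.88% ± 1.18, SD, n = 7, and 2.82% ± 0.62, n = 8) differed by 5.06 percentage points (2-sided exact permutation test, p = 0.000311, the smallest value these group sizes allow; adjusted over 4 classes of reads, p = 0.00124). On CD the difference was 1.27 points (exact permutation test, adjusted p = 0.0160), with means of 3.50% in PWK/PhJ and 2.23% in C57BL/6J. Reads mapped to several places, outside genes or to more than 1 gene differed by at most 0.36 points between the strains on WD, and none of these 3 classes passed the test (exact permutation tests, adjusted p = 0.259, 0.259 and 0.733). Between 44479522 and 46606121 reads were counted on genes in PWK/PhJ and between 48126749 and 49112273 in C57BL/6J, so that the precision of low genes was similar in both groups. For any single gene, a lower level in PWK/PhJ and a poorer fit of its reads to the reference cannot be told apart from these counts, and in a bulk sample fewer cells of a type and less RNA per cell cannot be told apart either.

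**Figure D1:**
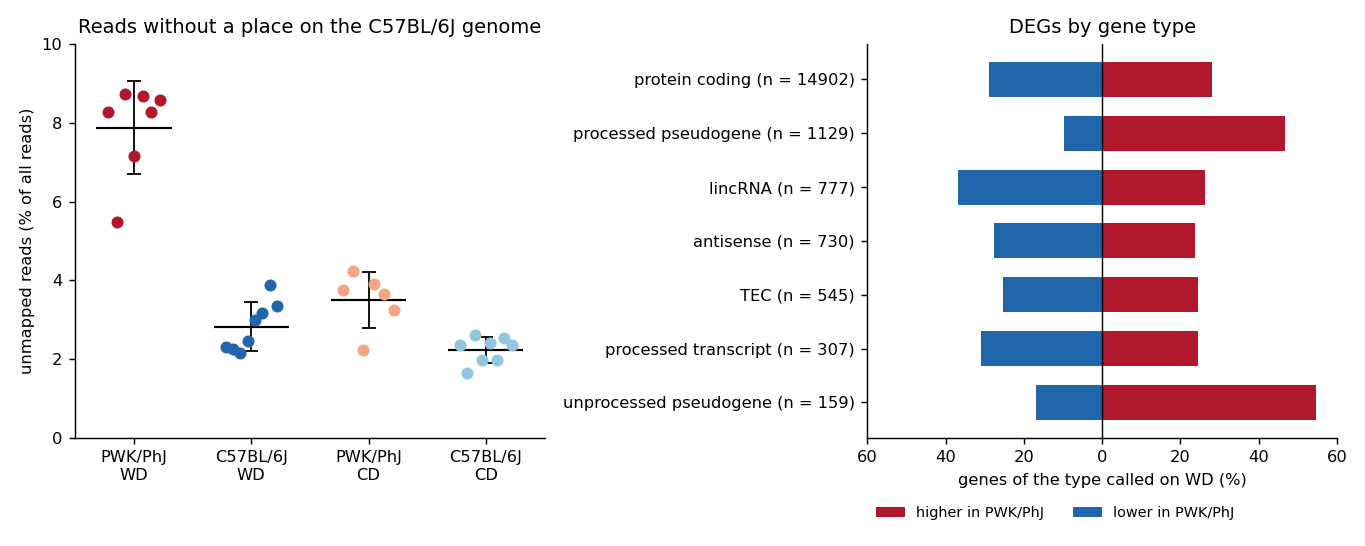
Left, unmapped reads as a percentage of all reads in each mouse (points) with the mean (bar) and SD (whiskers) of the 4 groups; the PWK/PhJ mice on WD lie between 5.48% and 8.73%, above all other mice. Right, percentage of the tested genes of each annotated type that were called higher (red) or lower (blue) in PWK/PhJ on WD; of the processed pseudogenes 46.7% were higher and 9.83% lower.

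A pair of C57BL/6J libraries, both from cohort 1, stood apart from their groups. That cohort held 3 PWK/PhJ and 5 C57BL/6J mice on WD, and 3 of each strain on CD. The WD library of replicate 3 correlated at 0.982 with its group median and the CD library of replicate 2 at 0.962, whereas all others of the 4 groups were at 0.9887 or above. Both were high in matrix and macrophage genes, with 164 and 89.4 CPM of Col1a1 and 104 and 178 CPM of Gpnmb. Some counts and calls are given with and without these libraries, and a count given only once can also have moved without them.

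On WD, 10849 of the 19110 genes (56.8%) differed between the strains at an adjusted p below 0.05, with 5519 (28.9%) higher and 5330 (27.9%) lower in PWK/PhJ. Of these differentially expressed genes (DEGs), 4262 changed by a log2FC of at least 1 in either direction (2221 higher and 2041 lower), and the median size over all DEGs was 0.74. In 5153 genes (27% of those tested) no PWK/PhJ mouse overlapped any C57BL/6J mouse. The median log2FC over all genes was 0.00, so the lists below are read against a background in which most genes were called. In the CD mice, which are other animals than the WD mice but shared the filter and the variance estimate of the fit, 11078 genes (58%) were called, and 8062 were called in both comparisons in the same direction. These were 74.3% of the WD DEGs and 72.8% of the CD DEGs; 165 genes were called in opposite directions and 2622 WD DEGs were not called on CD. Against the other 5 strains on WD, the mean of those strains lay nearer to C57BL/6J for 6758 of the WD DEGs (62.3%). It lay nearer to PWK/PhJ for 4091 (37.7%). All 5 but CAST/EiJ are, per the study, of the same subspecies as C57BL/6J, and all were mapped to its genome. The parts of kinship and of mapping in these shares were not tested.

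The calls were not even over gene types. Protein-coding genes were balanced, with 4188 higher and 4319 lower of 14902. Of 1129 processed pseudogenes, which are copies of spliced transcripts inserted back into the genome, 527 were higher in PWK/PhJ and 111 lower, with a median log2FC of 0.52; on CD the counts were 558 and 104. Of 159 unprocessed pseudogenes 87 were higher and 27 lower. A pseudogene shares most of its sequence with its parent gene and reads can be exchanged between them, so these values are uncertain. Long intergenic RNAs leaned the other way, with 205 higher and 286 lower of 777.

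Some genes were near 0 in all mice of 1 strain, defined as at most 3 counts in each mouse of that strain and at least 50 in each mouse of the other. This held for 13 genes near 0 in PWK/PhJ, of which 10 were protein-coding, and for 32 near 0 in C57BL/6J, of which 7 were protein-coding and 19 were pseudogenes. Miox (chr15:89334398-89337015), the oxygenase that breaks down myo-inositol, had between 0 and 3 counts in the C57BL/6J mice on WD and between 2062 and 2446 in the PWK/PhJ mice. Sult2a1, a sulfotransferase of hydroxysteroids and bile acids, had between 0 and 2 counts in C57BL/6J and between 281 and 4166 in PWK/PhJ. In the opposite direction, Dsg1c, a desmosomal cadherin, had between 0 and 2 counts in PWK/PhJ and between 277 and 807 in C57BL/6J. The interferon-inducible Ifi27l2a had between 0 and 1 against between 212 and 576, and the olfactory receptor gene Olfr1033 between 0 and 3 against between 334 and 858. For all 5 the same strain was also the low one on CD.

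The largest differences are given for protein-coding genes whose log2 CPM averaged 2 or more over the 15 mice and whose strains did not overlap, which leaves out genes almost absent from 1 strain such as those above. Gstm3 (chr3:107963696-107969283), a mu-class glutathione transferase, was between 0.0811 and 0.236 CPM in PWK/PhJ (median 0.176) and between 25.6 and 326 CPM in C57BL/6J (median 169). Every PWK/PhJ mouse was far below every C57BL/6J mouse, and the log2FC was -9.53 ± 1.20 (adjusted p = 7.41e-11). Its neighbour in the family Gstm2 had a log2FC of -4.28 ± 0.26. The others that were lowest in PWK/PhJ at this level were Serpina1c, an antitrypsin (-8.12 ± 0.21), Sdr9c7 (-7.41 ± 0.46), Wfdc21 (-7.39 ± 0.59), the cytochrome P450s Cyp2c38 (-5.79 ± 0.57) and Cyp4a14 (-5.04 ± 0.91), the amino acid transporter subunit Slc3a1 (-5.79 ± 0.49), the major urinary protein Mup3 (-5.70 ± 0.39), H2-Eb1 (-5.54 ± 0.43) and the retinol dehydrogenase Rdh16f2 (-5.43 ± 0.48).

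At the other end stood Gm7298, annotated as protein-coding, with 163 to 297 CPM in PWK/PhJ and at most 0.218 CPM in C57BL/6J (log2FC 10.78 ± 0.38). At this level it was followed by Mup18 (8.23 ± 0.54), the carboxylesterase Ces2h (7.46 ± 0.16), Tmc5 (6.20 ± 0.48), the cell cycle factor E2f7 (6.18 ± 0.32), Cyp2c40 (6.17 ± 0.53), Tpm3-rs7 (6.03 ± 0.14), Cyp2a4 (5.67 ± 0.75), Gm5096 (5.58 ± 0.24) and the sulfotransferase Sult5a1 (5.40 ± 0.34). All 20 genes differed in the same direction on CD, where each was also a DEG. The Mup, Cyp2c, Gstm, Serpina1 and H2 genes have close paralogs whose reads can be exchanged, and E2f7, Slc3a1, Serpina1c, H2-Eb1, Cyp2a4 and Sult5a1 overlap a gene on the opposite strand that cannot be told apart without strand information, so the values of these genes are uncertain.

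**Figure D2:**
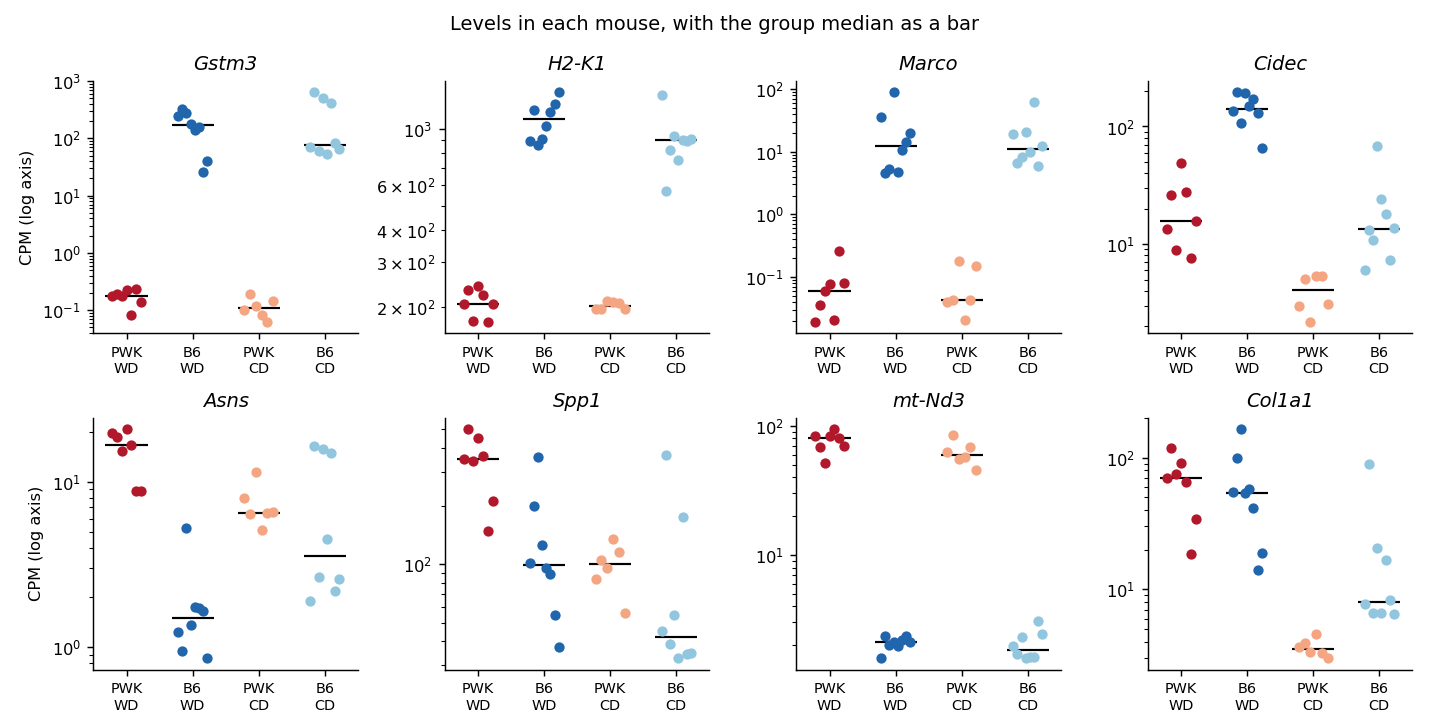
Level of 8 genes in each mouse (points, CPM on log axes) in the 4 groups, with the group median as a bar (PWK, PWK/PhJ; B6, C57BL/6J). Gstm3, H2-K1, Marco and Cidec are lower in all PWK/PhJ mice on WD, Asns and mt-Nd3 are higher in all of them, and Spp1 and Col1a1 overlap between the strains on WD.

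Genes of leukocytes were lower in the PWK/PhJ livers on WD. Of 29 genes of monocytes and leukocytes in general, 23 were lower and 2 higher, with a median log2FC of -0.82, where 27.9% of all genes were lower; 19 of the 29 were lower in every PWK/PhJ mouse, against 12.8% of all genes. Fcgr1, a high-affinity Fc receptor, was between 1.20 and 2.52 CPM (median 1.67) in PWK/PhJ and between 6.55 and 11.8 CPM (median 8.47) in C57BL/6J, with a log2FC of -2.39 ± 0.19 (adjusted p = 3.50e-19). The other members that moved most were the monocyte antigen Ly6c2 (-2.12 ± 0.34), the lysosomal Laptm5 (-1.57 ± 0.18) and the GTPase Rac2 (-1.54 ± 0.18). The summed level of the list was 331 to 479 CPM in PWK/PhJ and 579 to 1039 CPM in C57BL/6J, without overlap. No member was at 0 in all mice of either group. On CD 27 of the 29 were lower and 1 higher. Within cohort 1 alone 20 were lower and within cohort 2 alone 17, and none was higher in either.

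Markers of resident Kupffer cells, the macrophages of the sinusoids, followed the same direction, with 8 of 13 lower and 1 higher (median log2FC -1.02). Without C57BL/6J WD replicate 3, 11 were lower and 1 higher. Marco (chr1:120474538-120505024), a scavenger receptor, was between 0.0194 and 0.257 CPM (median 0.0587) in PWK/PhJ and between 4.54 and 88.5 CPM (median 12.4) in C57BL/6J. All PWK/PhJ mice were below all C57BL/6J mice, and the log2FC was -7.68 ± 1.38 (adjusted p = 1.39e-06). In cohort 1 alone it was -8.18 and not called (adjusted p = 0.0995). The macrophage genes Folr2 (-2.46 ± 0.27) and Adgre1 (-1.96 ± 0.21), the latter coding for F4/80, were also lower. The summed level of the Kupffer list ranged from 610 to 794 CPM in PWK/PhJ and from 748 to 1117 CPM in C57BL/6J, with a small overlap. Of 18 T and NK cell markers 9 were lower and 1 higher, of 12 B and plasma cell markers 6 and 2, and of 12 neutrophil markers 4 and 1. Over all genes 27.9% were lower, and the neutrophil share of 33.3% was close to that. These 3 lists were less even between cohorts: in cohort 1 alone 2, 3 and 1 genes were lower and 1, 2 and 1 higher, and in cohort 2 alone 8, 0 and 3 were lower and 0, 2 and 1 higher.

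Of 33 cytokine and inflammatory receptor genes 19 were lower in PWK/PhJ and 2 higher (median log2FC -0.58). Among all genes 27.9% were lower and 28.9% higher. Tnf, the gene of tumour necrosis factor, was between 0.236 and 0.659 CPM (median 0.489) against between 0.716 and 2.46 CPM (median 1.15), with a log2FC of -1.41 ± 0.35 (adjusted p = 0.000358). In cohort 2 alone it was -1.27 and not called (adjusted p = 0.115). Tlr1 (-1.44 ± 0.22), Casp1 (-1.39 ± 0.14) and Irf5 (-1.39 ± 0.18) were the other members with the largest changes. Among 26 chemokines and receptors 10 were lower, led by Ccl6 (-3.39 ± 0.25), and 5 higher, led by the B cell attractant Cxcl13 (2.48 ± 0.40). The monocyte attractant Ccl2 was between 2.21 and 5.86 CPM in PWK/PhJ and between 2.73 and 7.82 CPM in C57BL/6J and did not pass the test (-0.30 ± 0.20, adjusted p = 0.204).

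All 18 genes of MHC class I presentation were called on WD, 16 lower and 2 higher (median log2FC -1.19). The shares over all genes were 27.9% lower and 28.9% higher. H2-K1, a classical class I heavy chain, was between 176 and 243 CPM (median 206) in PWK/PhJ and between 862 and 1384 CPM (median 1094) in C57BL/6J, a log2FC of -2.37 ± 0.11 (adjusted p = 5.04e-35). H2-Q7 (-3.93 ± 0.24), H2-Q1 (-3.48 ± 0.30) and H2-Q6 (-2.47 ± 0.18) were lower as well, and H2-Q2 was higher (3.20 ± 0.15). Of 11 class II genes 4 were lower and none higher at the threshold; H2-Eb1 was between 1.03 and 2.10 CPM in PWK/PhJ and between 41.8 and 126 CPM in C57BL/6J, whereas H2-Ab1, which codes for a chain of another class II molecule, had a log2FC of -0.30 ± 0.24 (adjusted p = 0.297). The heavy chains of class I are close paralogs and vary greatly in sequence between mouse strains, so their counts are uncertain. Interferon-stimulated genes were divided, with 10 higher and 10 lower of 30. The antiviral GTPase gene Mx2, annotated in the C57BL/6J reference as a polymorphic pseudogene, was higher (3.95 ± 0.24) and Ifit3 lower (-3.01 ± 0.28).

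Acute phase genes, which code for plasma proteins that the liver makes in inflammation, went the other way. Of 20 genes 13 were higher in PWK/PhJ and 1 lower (median log2FC 0.76), where 28.9% of all genes were higher, and on CD 12 were higher and 1 lower. In cohort 1 alone 12 were higher and 1 lower, and in cohort 2 alone 9 and 4. Without C57BL/6J WD replicate 3, 10 were higher and 1 lower. Saa1, a serum amyloid A, was between 205 and 827 CPM (median 490) in PWK/PhJ and between 63.2 and 264 CPM (median 159) in C57BL/6J. The ranges overlapped, and its log2FC of 1.70 ± 0.70 (adjusted p = 0.0321) missed the threshold without C57BL/6J replicate 3 (1.52, adjusted p = 0.0634), without C57BL/6J replicate 1 (0.0593) and without PWK/PhJ replicate 2 (0.0642) or 4 (0.0529). Lcn2, an iron-siderophore binding protein, had a log2FC of 1.67 ± 0.45 (adjusted p = 0.00110). The lower member was Orm1, an acid glycoprotein, with 63.7 to 264 CPM against 333 to 639 CPM (-1.99 ± 0.27).

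Genes of fibrosis were similar in number in both directions on WD when both cohorts were fitted together. Of 18 collagen genes 3 were higher and 3 lower, of 29 matrix glycoprotein and crosslinking genes 9 and 7, and of 18 matrix metalloproteinases and their inhibitors 3 and 5. In cohort 1 alone 1, 1 and 2 genes of these lists were higher and 2, 4 and 3 lower, and in cohort 2 alone 6, 13 and 2 were higher and 1, 3 and 3 lower. Col1a1, the main fibrillar collagen chain, was between 18.5 and 117 CPM (median 70.0) in PWK/PhJ and between 14.0 and 164 CPM (median 54.1) in C57BL/6J. The ranges overlapped widely, and the log2FC of 0.26 ± 0.33 did not pass the test (adjusted p = 0.520; 0.50 and 0.194 without C57BL/6J replicate 3). Several other matrix genes were higher in PWK/PhJ, from lists in which the lower genes were similar in number. The higher ones named were the inhibitor of metalloproteinases Timp1 (1.52 ± 0.29), the protease gene Adamts5 (1.95 ± 0.22), the calcification inhibitor Mgp (1.72 ± 0.20), the collagen chain Col5a2 (1.45 ± 0.29), Ltbp2 (1.37 ± 0.27) and the proteoglycan Vcan (1.34 ± 0.29). In cohort 1 alone Col5a2 (0.77, adjusted p = 0.237), Ltbp2 (1.18, 0.135) and Vcan (1.34, 0.0642) were not called. Col5a3 was lower in every PWK/PhJ mouse (-1.09 ± 0.15). Postn, the periostin gene, was lower as well (-0.74, adjusted p = 0.000193, without C57BL/6J WD replicate 3), but it was not called in cohort 2 alone (-0.36, 0.198). Stellate cell markers were 3 higher and 5 lower of 16, with a summed level of 404 to 440 CPM in PWK/PhJ and 348 to 453 CPM in C57BL/6J. Without C57BL/6J replicate 3, 3 stellate markers and 3 metalloproteinases or inhibitors were lower.

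Spp1, which codes for osteopontin and is made by bile duct cells and by macrophages, was between 150 and 501 CPM (median 352) in PWK/PhJ and between 37.3 and 358 CPM (median 98.8) in C57BL/6J. All C57BL/6J mice but replicate 3 lay at or below 201 CPM, and the log2FC was 1.58 ± 0.30 (adjusted p = 4.49e-06; 1.34 and 0.105 in cohort 1 alone, 2.25 and 0.00108 in cohort 2 alone). Of 13 cholangiocyte markers, a list that also holds Spp1, 6 were higher and 2 lower. Krt23 (1.84 ± 0.27) and Cftr (1.99 ± 0.39) were among the higher ones. For comparison, 28.9% of all genes were higher and 27.9% lower. The summed level of this list was 224 to 587 CPM (median 433) in PWK/PhJ and 76.9 to 459 CPM (median 145) in C57BL/6J. Much of this sum was Spp1 itself, with medians of 352 and 98.8 CPM. Of 16 genes of lipid-associated macrophages, cells that take up lipid in fatty liver, 2 were higher (Spp1 and Cd63, the latter 1.10 ± 0.25) and 6 lower, including Cd9 (-0.80 ± 0.16) and Lgals3 (-0.74 ± 0.21). Lgals3 was not called in cohort 1 alone (-0.97, adjusted p = 0.0904) or in cohort 2 alone (-0.32, 0.410). Cd63 was not called in cohort 1 alone (0.81, adjusted p = 0.259). Trem2, the lipid-sensing receptor that marks these cells, had a log2FC of -0.71 ± 0.33 (adjusted p = 0.0574), and Gpnmb one of 0.81 ± 0.39 (adjusted p = 0.0657). In cohort 2 alone Gpnmb was 2.20 (adjusted p = 0.00133) and Trem2 0.23 (adjusted p = 0.719), and neither was called in cohort 1 alone. Gpnmb also passed without C57BL/6J replicate 3 (1.11, adjusted p = 0.00963) or 2 (0.95, 0.0347), and Trem2 passed as lower without C57BL/6J replicate 7 (-0.94, 0.00890) or 8 (-0.96, 0.00635) and without PWK/PhJ replicate 2 (-0.89, 0.0267) or 4 (-0.82, 0.0410).

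Of 25 lipid droplet and steatosis genes, 12 were lower in PWK/PhJ on WD, 1 was higher and 12 did not pass (median log2FC -0.54). In each cohort alone 11 were lower. Among all genes 27.9% were lower on WD. Their summed level, at 2418 to 3176 CPM in PWK/PhJ and 2492 to 3593 CPM in C57BL/6J, overlapped. Cidec, which fuses lipid droplets into larger ones, lies at chr6:113424634-113435760. It was between 7.55 and 48.5 CPM (median 15.9) in PWK/PhJ and between 66.3 and 195 CPM (median 142) in C57BL/6J, a log2FC of -2.94 ± 0.40 (adjusted p = 7.63e-10) without overlap. Its relative Cidea was at most 0.190 CPM in PWK/PhJ and between 2.40 and 36.7 CPM in C57BL/6J (-8.12 ± 1.08), the triglyceride-binding Fitm1 was lower (-4.55 ± 0.46), and the droplet coat gene Plin4 was between 4.72 and 16.5 CPM against between 25.7 and 68.6 CPM (-2.41 ± 0.38). Pparg, the nuclear receptor that drives fat storage genes, was between 1.22 and 11.5 CPM (median 3.87) in PWK/PhJ and between 9.23 and 36.0 CPM (median 23.1) in C57BL/6J, a log2FC of -2.28 ± 0.27 (adjusted p = 1.15e-11) with a slight overlap. Cfd, an adipose-type complement factor, was at most 0.117 CPM in PWK/PhJ and between 2.80 and 150 CPM in C57BL/6J. Cd36, a fatty acid transporter, did not pass the test (-0.26 ± 0.21, adjusted p = 0.285).

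Fatty acid and triglyceride synthesis genes were 3 higher and 3 lower of 22. Fasn, the fatty acid synthase, was between 306 and 805 CPM in PWK/PhJ and between 249 and 820 CPM in C57BL/6J (0.08 ± 0.29, adjusted p = 0.821). Scd1, the stearoyl-CoA desaturase, had a log2FC of -0.77 ± 0.29 (adjusted p = 0.0186; -0.35 and 0.622 when genes with any count were kept), Acaca, the acetyl-CoA carboxylase, one of -1.19 ± 0.21, and Pnpla3, a lipase-like protein of lipid droplets, one of 3.09 ± 0.49. Pck1, the rate-limiting enzyme of gluconeogenesis, was between 204 and 499 CPM (median 326) in PWK/PhJ and between 1308 and 3110 CPM (median 1695) in C57BL/6J, with no overlap (-2.54 ± 0.28, adjusted p = 6.21e-13). Genes of fatty acid oxidation and ketogenesis were 5 higher and 5 lower of 28. Without C57BL/6J replicate 3, 2 oxidation genes were higher and 5 synthesis genes were lower.

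Of 20 cholesterol synthesis enzymes 11 were higher in PWK/PhJ on WD and 1 lower (median log2FC 0.45), where 28.9% of all genes were higher, and on CD 9 were higher and none lower at the threshold. The WD count was 8 without C57BL/6J replicate 3 and 5 in each cohort alone, where 0 and 2 were lower; in cohort 2 alone 4485 of all 18361 genes were higher, a share close to that of the list. The summed level of the list overlapped, at 1234 to 1880 CPM in PWK/PhJ and 1168 to 1733 CPM in C57BL/6J. Nsdhl, a demethylating enzyme late in the pathway, was between 30.0 and 61.8 CPM (median 48.6) in PWK/PhJ and between 12.3 and 26.1 CPM (median 20.3) in C57BL/6J, a log2FC of 1.24 ± 0.21 (adjusted p = 6.25e-07) without overlap. Acat2 (1.10 ± 0.13) and Fdps (1.05 ± 0.31) were also higher in every PWK/PhJ mouse, and Mvd had a log2FC of 0.92 ± 0.32 (adjusted p = 0.00967) with overlap between the strains, which in cohort 2 alone was 0.15 (adjusted p = 0.787). The sterol exporter genes Abcg5 (-1.63 ± 0.13) and Abcg8 (-1.24 ± 0.15), which lie head to head and overlap on opposite strands, were lower.

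The reference promoters of a few genes are shown as sequence context for the cholesterol synthesis and MHC class I values above; no link between an element and a strain difference was tested. CCAAT (either strand) is the element bound by the factor NF-Y, which is known to work with the sterol regulators at cholesterol genes and to bind the promoters of MHC genes. In the 250 bases before any RefSeq start of a gene, it was found in 14 of the 15 cholesterol synthesis genes that had a promoter in the table, in 13 of 15 MHC class I genes, and in 37.5% of all 27025 gene symbols. A match describes these letters and does not show binding. The sequences are those of the C57BL/6J reference (GRCm38.p6); the PWK/PhJ bases are not used here. They run 5′ to 3′ along the gene and end at the base before the start, with the element in capitals. Nsdhl is on the plus strand at chrX:72918271-72918520 and holds it 109 and 20 bases before the start, Mvd is on the minus strand at chr8:122443423-122443672 and holds it at 60 and 27 bases, and H2-K1 is on the minus strand at chr17:34000348-34000597 and holds it at 16 bases.
Nsdhl: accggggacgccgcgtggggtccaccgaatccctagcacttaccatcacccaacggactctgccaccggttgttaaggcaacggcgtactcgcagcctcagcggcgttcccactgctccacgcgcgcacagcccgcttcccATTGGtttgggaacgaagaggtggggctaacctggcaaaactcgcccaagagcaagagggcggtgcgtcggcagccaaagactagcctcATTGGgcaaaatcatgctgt
Mvd: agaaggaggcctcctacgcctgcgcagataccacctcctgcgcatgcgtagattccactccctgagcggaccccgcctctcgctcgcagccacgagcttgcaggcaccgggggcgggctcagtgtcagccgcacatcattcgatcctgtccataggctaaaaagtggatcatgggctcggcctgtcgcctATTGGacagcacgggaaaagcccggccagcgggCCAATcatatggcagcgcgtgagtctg
H2-K1: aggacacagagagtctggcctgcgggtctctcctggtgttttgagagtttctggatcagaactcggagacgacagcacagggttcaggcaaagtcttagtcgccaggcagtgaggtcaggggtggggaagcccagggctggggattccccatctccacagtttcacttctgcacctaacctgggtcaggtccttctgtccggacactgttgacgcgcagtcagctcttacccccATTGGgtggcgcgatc

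Bile acid genes were balanced, with 4 higher and 4 lower of 20 tested. Cyp7b1, the oxysterol hydroxylase of the alternative pathway, was between 322 and 916 CPM (median 509) in PWK/PhJ and between 31.0 and 327 CPM (median 77.2) in C57BL/6J (log2FC 2.53 ± 0.34, adjusted p = 5.63e-10). Cyp2c70, which makes muricholic acids, was higher too (1.50 ± 0.19). Cyp7a1, the rate-limiting enzyme of the classical pathway, was between 35.7 and 173 CPM in PWK/PhJ and between 46.6 and 139 CPM in C57BL/6J (0.03 ± 0.50, adjusted p = 0.964), and the sign of this value was not stable.

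Drug-metabolising genes differed in both directions. Of 28 xenobiotic cytochrome P450s 8 were higher and 13 lower, and of 32 conjugation enzymes 10 were higher and 17 lower (median log2FC -0.48). Their higher shares of 28.6% and 31.25% were close to the 28.9% of all genes. The lower share of all genes was 27.9%. Beside Gstm3 and Gstm2 these included the glucuronosyltransferase Ugt2b38, which was higher (2.76 ± 0.36), and Cyp2c37, which was lower (-3.30 ± 0.37). Without C57BL/6J WD replicate 3, 6 P450s were higher and 14 lower, and 7 conjugation enzymes were higher and 18 lower. Of 12 Cyp4 hydroxylases, only some of which are targets of the fat sensor PPARα, 5 were higher and 4 lower. Cyp4a10 (-2.13 ± 0.62) and Cyp4f14 (-4.26 ± 0.16) were lower, and Cyp4a12a, a male-type gene, was higher (1.11 ± 0.34). Cyp4a12a missed the threshold with cohort as a covariate (0.96, adjusted p = 0.141), with only the mice of both strains (1.09, adjusted p = 0.108) and in either cohort alone. NRF2 targets and antioxidant enzymes were 12 lower and 4 higher of 23, among them the haem oxygenase Hmox1 (-1.08 ± 0.18). Of 25 male-biased liver genes 11 were higher and 6 lower, and of 28 female-biased genes 10 and 7. Their lower shares of 24% and 25% were near the 27.9% of all genes. Mup20, the male urinary protein darcin, was lower in every PWK/PhJ mouse (-1.84 ± 0.37), and Igf1, the main hepatic target of growth hormone, was higher (0.54 ± 0.11).

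Mitochondrially encoded genes split by gene: of 13 subunits 6 were higher in PWK/PhJ and 3 lower, and the 6 were higher in every mouse. Among all genes 28.9% were higher, 27.9% lower and 14.2% higher in every PWK/PhJ mouse. The summed level of the 13 subunits leaned the other way, with overlap. It was 48936 to 73249 CPM (median 59301) in PWK/PhJ and 57221 to 83458 CPM (median 80784) in C57BL/6J. mt-Nd3 (chrM:9459-9806) was between 51.6 and 94.5 CPM (median 81.4) in PWK/PhJ and between 1.60 and 2.37 CPM (median 2.11) in C57BL/6J, a log2FC of 5.17 ± 0.14 (adjusted p = 2.54e-51). mt-Atp8 (3.07 ± 0.17) and mt-Nd4l (2.96 ± 0.15), which overlap a neighbouring gene on the same strand, and mt-Co2 (2.33 ± 0.12) were also higher. mt-Co1 was lower, at 12792 to 17032 CPM against 16936 to 27116 CPM (-0.69 ± 0.07). Mitochondrial sequences have copies in the nuclear genome with which reads can be exchanged, so these values are uncertain too.

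The strain difference was then compared between the diets. In 2101 genes (11%) the difference on WD was not the same as on CD, more positive on WD in 1003 (5.25%) and more negative in 1098 (5.75%). A mapping effect of fixed size would drop out of this comparison, but the gap in unmapped reads was itself 5.06 points on WD and 1.27 points on CD, and its part in these differences was not tested. The comparison shares its WD mice with the WD comparison above. The number of genes depended on the mice used: 952 genes passed when only the mice of both strains entered the fit, 22 in cohort 1 alone, 1249 in cohort 2 alone and 3021 without C57BL/6J WD replicate 3. Cohort 1 held both C57BL/6J libraries that stood apart, and on CD only 3 C57BL/6J mice. What these libraries, the number of mice and the cohort each add to the counts of cohort 1 alone was not tested. With upper-quartile normalization the split was 1156 more positive to 804 more negative.

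**Figure D3:**
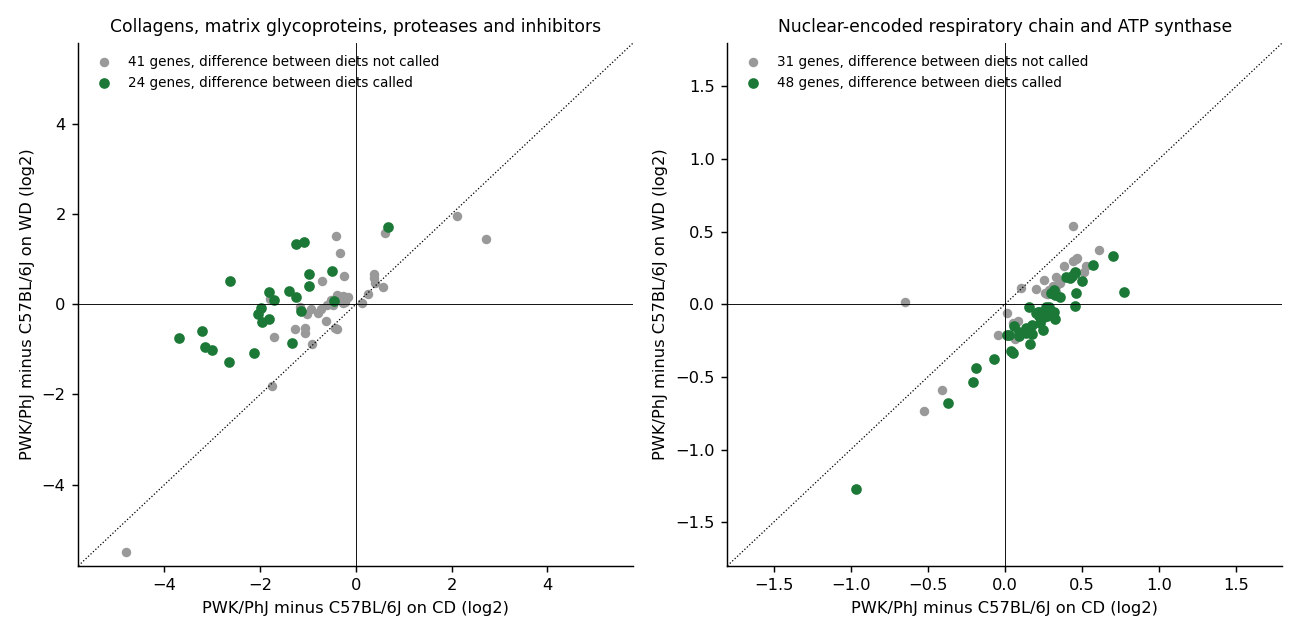
Log2 fold change of PWK/PhJ against C57BL/6J on CD (x axis) and on WD (y axis) for each gene (point) of the matrix lists (left, 65 genes) and of the nuclear-encoded subunits of the respiratory chain and ATP synthase (right, 79 genes); green marks genes whose difference between the diets passed the test, and the dotted line marks equal values. All 24 green matrix genes lie above the line and all 48 green mitochondrial genes below it.

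Matrix genes were more positive on WD. On CD 13 of 18 collagens were lower in PWK/PhJ and 2 higher, 14 of 29 matrix glycoproteins were lower and 1 higher, and 12 of 18 metalloproteinases and inhibitors were lower and 1 higher. Over the 65 genes of these lists the median log2FC was -0.80 on CD and 0.08 on WD, and 24 genes differed between the diets, all of them more positive on WD, where 5.25% of all genes were. Col1a1 was between 3.00 and 4.59 CPM in PWK/PhJ on CD and between 6.50 and 89.4 CPM in C57BL/6J, so that its log2FC was -1.82 ± 0.55 on CD and the difference between the diets was 2.08 ± 0.64 (adjusted p = 0.0221). Without C57BL/6J CD replicate 2 that difference was 1.65 (adjusted p = 0.0598). Ltbp2 (2.46 ± 0.54), Vcan (2.59 ± 0.66), Col8a1 (1.64 ± 0.40) and Postn (2.95 ± 0.39), which codes for periostin, passed with and without that library. On WD itself Postn was lower in PWK/PhJ, as given above. Without it the 3 lists held 5, 8 and 4 genes more positive on WD, in place of 6, 12 and 6, and 1 collagen gene was more negative. Without C57BL/6J WD replicate 3 they held 13, 20 and 9. In cohort 1 alone 0, 1 and 0 passed, and in cohort 2 alone 5, 8 and 4. The cholangiocyte list moved with them, with 5 of 13 genes more positive on WD and 1 more negative, and its summed level was 124 to 206 CPM in PWK/PhJ and 70.1 to 521 CPM in C57BL/6J on CD; its part in the matrix values was not tested.

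Trem2 was at most 0.0834 CPM in PWK/PhJ on CD and between 0.495 and 15.3 CPM in C57BL/6J on CD, and its strain difference was 4.46 ± 1.11 more positive on WD (adjusted p = 0.00371; 3.94 without C57BL/6J CD replicate 2). Pparg behaved alike (2.43 ± 0.67), at 0.261 to 0.463 CPM against 5.46 to 16.4 CPM on CD. Of the leukocyte list 4 of 29 genes differed between the diets, all more positive on WD, where 5.25% of all genes were. Of the lipid-associated macrophage list 5 of 16 were more positive and 1 more negative, and of the cytokine list 5 of 33 and 0. Without C57BL/6J CD replicate 2, 3, 4 and 4 genes of these lists were more positive. In cohort 1 alone none was. None of the Kupffer list was more positive, and 1 was more negative.

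The nuclear-encoded subunits of oxidative phosphorylation were more negative on WD. On CD 22 of 36 complex I subunits were higher in PWK/PhJ and 4 lower, and on WD 11 were higher and 13 lower (7 and 16 without C57BL/6J WD replicate 3). The difference between the diets passed in 21 of 36 complex I, 7 of 14 complex II and III, 10 of 13 complex IV and 10 of 16 ATP synthase subunits, each more negative on WD, where 5.75% of all genes were. Ndufb8, a complex I subunit, was between 42.4 and 47.6 CPM in PWK/PhJ and between 33.2 and 47.5 CPM in C57BL/6J on WD, but between 65.8 and 80.2 CPM and between 33.6 and 49.0 CPM on CD. Its strain difference was 0.09 ± 0.07 on WD and 0.77 ± 0.07 on CD, a change of -0.68 ± 0.10 (adjusted p = 3.51e-07). The changes were small, with a median of -0.26 for complex I. None of the subunits passed in cohort 1 alone, and 7, 3, 5 and 3 did in cohort 2 alone. Without C57BL/6J WD replicate 3 the counts were 27, 12, 12 and 13, and without C57BL/6J CD replicate 2 they were 17, 5, 10 and 10. Of the 22 hepatocyte markers 5 were also more negative on WD and none more positive. Without C57BL/6J CD replicate 2, 4 were more negative and 1 more positive. The summed level of these markers on CD was 165005 to 195585 CPM in PWK/PhJ and 153277 to 177674 CPM in C57BL/6J, and its part was not tested. Ndufs5 (-1.27 ± 0.06) and Cox7a2l (-0.73 ± 0.06) were lower in every PWK/PhJ mouse on WD and lower on CD as well.

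The genes whose strain difference moved most between the diets included Asns, asparagine synthetase, a target of the amino acid response. It was between 8.79 and 20.8 CPM (median 16.8) in PWK/PhJ and between 0.856 and 5.25 CPM (median 1.51) in C57BL/6J on WD, without overlap, and between 5.13 and 11.4 CPM and between 1.91 and 16.4 CPM on CD, where C57BL/6J replicates 2, 4 and 6 lay at 15.0 CPM or above and the others at 4.50 CPM or below. The log2FC was 3.22 ± 0.36 on WD (adjusted p = 9.93e-13) and 0.41 ± 0.31 on CD (adjusted p = 0.264), and the difference between the diets was 2.81 ± 0.48 (adjusted p = 1.86e-05). Its list of hepatokines and integrated stress response genes did not go with it: 4 of 24 were higher on WD, among them the fetuin gene Fetub (1.64 ± 0.13), and 9 were lower, among them the lipoprotein receptor gene Vldlr (-1.98 ± 0.34). Fgf21 (0.74 ± 0.37, adjusted p = 0.0822) and Gdf15 (-0.45 ± 0.39, adjusted p = 0.333) did not pass. The reference promoter of Asns (minus strand, chr6:7693210-7693459) is given in the same way, with TGATGNAA, the core of the element bound by ATF4 and C/EBP, in capitals at 23 bases before the RefSeq start. This core was found on either strand, before any RefSeq start of a gene, in 8 of the 21 genes of the list that had a RefSeq promoter, against 3.91% of all symbols. The list was chosen to hold genes of this response, so the share describes the list only. No link to a strain difference was tested.
Asns: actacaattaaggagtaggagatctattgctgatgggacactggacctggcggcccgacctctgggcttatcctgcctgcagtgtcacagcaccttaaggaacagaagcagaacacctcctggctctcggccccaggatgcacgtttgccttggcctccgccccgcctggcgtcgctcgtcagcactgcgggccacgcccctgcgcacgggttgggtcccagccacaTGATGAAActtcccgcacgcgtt

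Other genes with large diet-dependent strain differences were Cib3 (4.10 ± 0.54), Orm1 (3.19 ± 0.41), the oxysterol hydroxylase gene Cyp39a1 (2.93 ± 0.83) and the acetylcholine receptor subunit Chrna2 (2.77 ± 0.63), which were more positive on WD. Chrna2 (chr14:66135039-66152948) was between 155 and 214 CPM in PWK/PhJ and between 6.89 and 9.52 CPM in C57BL/6J on WD, and between 7.79 and 90.5 CPM and between 1.08 and 17.0 CPM on CD. More negative on WD were Mmd2 (-2.76 ± 0.56), the sulfatase Sulf2 (-2.72 ± 0.27), the cholesterol hydroxylase Cyp46a1 (-2.43 ± 0.40) and Plin4 (-2.21 ± 0.60). The log2FC on WD itself had the other sign in several of these genes. Without C57BL/6J WD replicate 3 it was -3.35 for Cyp39a1, 4.72 for Mmd2, 4.68 for Cyp46a1 and 1.07 for Sulf2. The clock gene Per1 was lower in every PWK/PhJ mouse on WD (-1.98 ± 0.40) but not called on CD (-0.13 ± 0.40, adjusted p = 0.800), a difference of -1.85 ± 0.57 (adjusted p = 0.0206). Of 19 clock genes 2 were higher and 4 lower on WD, and 7 were higher and none lower on CD. The study gives the early afternoon as the time of collection, and the hour of each mouse is not used here.

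The remaining lists showed no common direction on WD. Complement genes were 6 higher and 10 lower of 28, sinusoidal endothelial markers 5 and 6 of 16, genes of cholesterol uptake, sensing and efflux 3 and 5 of 20, gluconeogenesis and insulin response genes 4 and 4 of 18, and genes of the growth hormone and IGF axis 2 and 4 of 17. Female-biased genes had a median log2FC of 0.48 on WD and 1.75 on CD, where 15 were higher and 6 lower. Of the 28, 8 were more negative on WD and 1 more positive. Among all genes 5.75% were more negative on WD, and on CD 29.4% were higher and 28.6% lower.

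**Figure D4:**
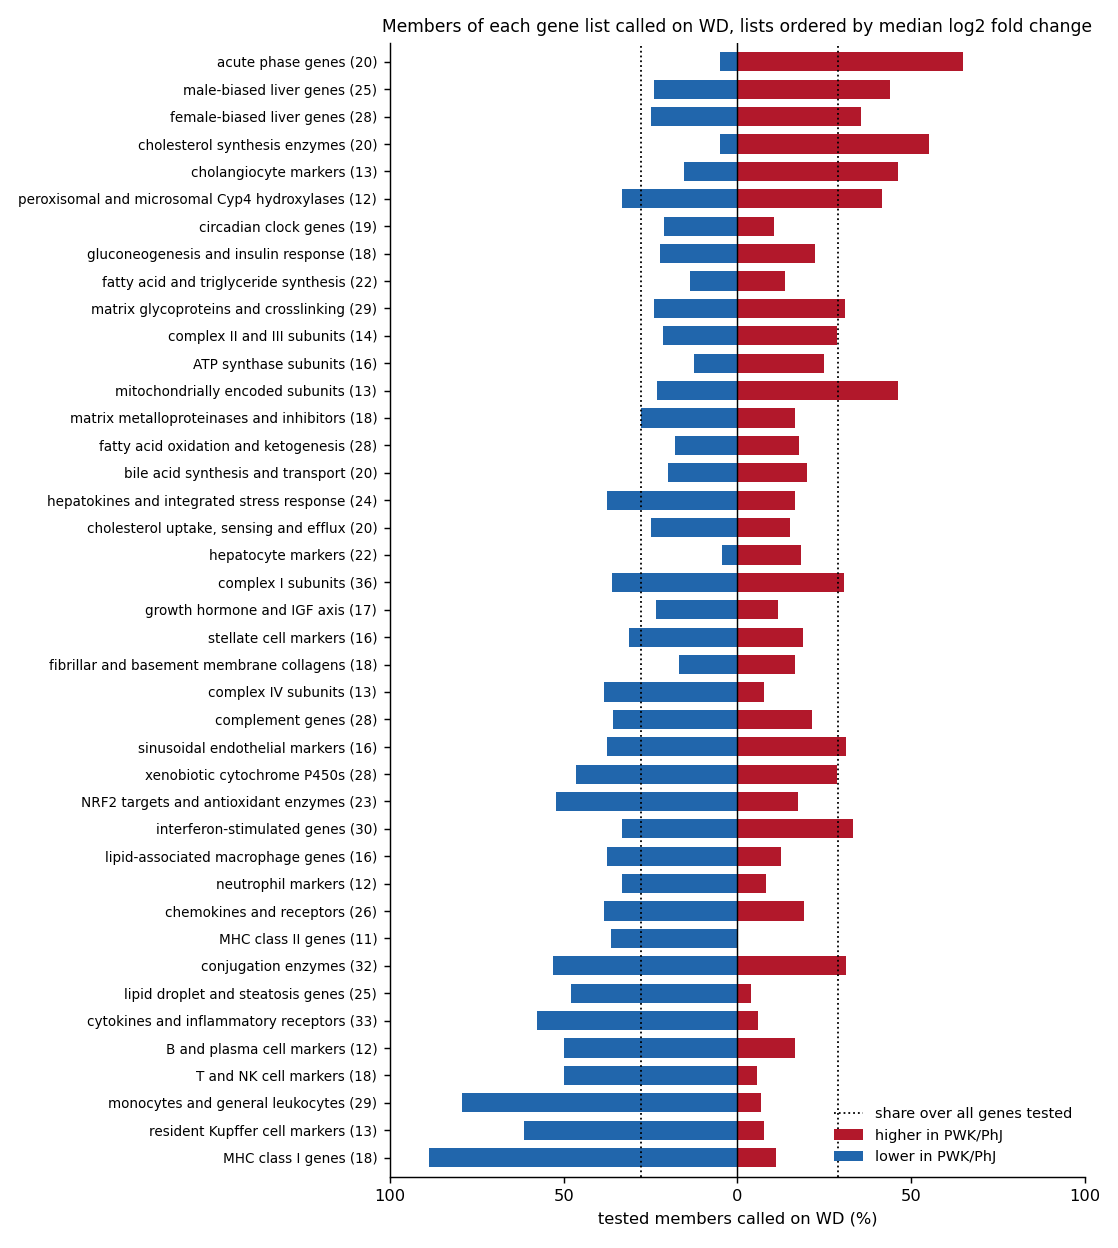
Percentage of the tested members of each of 41 gene lists (number tested in brackets) that were higher (red) or lower (blue) in PWK/PhJ on WD, with the lists ordered by median log2 fold change; the dotted lines give the share over all genes (28.9% higher, 27.9% lower). Acute phase genes (13 of 20 higher) stand at the top, and MHC class I (16 of 18 lower), Kupffer (8 of 13) and leukocyte genes (23 of 29) at the bottom.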

How the data were processed

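Liver RNA of the mice was extracted with TRIzol and a column kit, made into mRNA libraries with the SMARTER kit and sequenced on a BGISEQ-500. Per the submitters' processing notes, reads of all strains were mapped by STAR 2.7.1a to the C57BL/6J genome (GRCm38, mm10). The values used are the raw read counts per gene that the authors deposited in 1 table, with 4 further lines for reads not counted on genes. The gene annotation release and the strand setting of the counting are not given in the sources used here. Of 53465 gene identifiers 53360 were matched to GENCODE vM21 for symbols, types and positions (GRCm38); promoters came from RefSeq.

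Groups followed the labels for strain and diet. Counts were filtered (filterByExpr of edgeR 4.0.16, minimum count 10), scaled by TMM and fitted with limma-voom (limma 3.58.1, R 4.3.3) over all 93 mice and 14 groups. The study names limma-voom on TMM-scaled counts for its diet contrast; the filter, the strain contrasts and the joint fit were chosen here. The contrasts were PWK/PhJ minus C57BL/6J on WD, on CD, and the difference of both, with Benjamini-Hochberg adjustment over 19110 genes and a threshold of 0.05. CPM are on the TMM scale, and fold changes are log2. All adjusted p-values of genes come from limma-voom unless named otherwise, and they measure the spread between mice. Shares of reads were compared by exact permutation tests over mice, adjusted over 4 classes. The genes named were, by a rule, the 10 largest changes in each direction among protein-coding DEGs without overlap whose log2 CPM averaged 2 or more, up to 4 of each list, 6 with the largest diet dependence in each direction, 6 near 0 in each strain, and a set of genes chosen by name, of which some are not reported here. The members and the 41 lists (823 tested genes) were chosen with earlier results of these data known. The procedure was tested on simulated data. These held far fewer changed genes than were called here, and neither cohorts nor libraries that stood apart. They therefore do not give the error rate in the real data. The 11 alternatives included edgeR, DESeq2 1.42.0, other scalings and filters, cohorts, and leaving out each mouse. Beside those noted in the text, genes overlapping another gene on the opposite strand, whose counts are uncertain, are Acaca, Ccl2, Ccl6, Cd9, Cftr, Cidea, Col5a3, Fitm1, Folr2, Igf1, Irf5, Ltbp2, Mvd, Plin4, Pnpla3, Pparg, Sulf2, Timp1 and Vcan.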

Additional observations from a re-analysis of the deposited data

Results flagged for a closer look

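Single mice lay far from the rest of their group in several genes (CPM; chance marks about 1 in 20 groups this way). C57BL/6J WD replicate 3 was highest for Adamts5 (8.39), Asns (5.25), Cd9 (56.1), Cftr (2.22), Cib3 (22.7), Col5a2 (35.7), Gpnmb (104), Ltbp2 (11.7), Mgp (8.26), Mmd2 (8.96), Olfr1033 (13.8) and Slc3a1 (56.9), and lowest for Fitm1 (8.02), Ndufs5 (24.7) and mt-Co1 (16936). This is the library that stood apart from its group. C57BL/6J WD replicate 4 was highest for the macrophage and immune genes Adgre1 (129), Cxcl13 (11.6), Marco (88.5), Rac2 (43.5) and Tlr1 (14.5). Replicate 7 was highest for Chrna2 (9.52) and Cyp2c40 (7.64), and replicate 8 for Sult5a1 (4.12). Among the PWK/PhJ mice on WD, replicate 2 was highest for Cftr (3.50), Cyp2b9 (1.47), Wfdc21 (2.82) and the share of reads outside genes (5.06%), and replicate 4 for Cidea (0.190). Replicate 6 was highest for Gm7298 (297), Marco (0.257) and Mup20 (2038) and lowest for H2-Ab1 (57.3) and Laptm5 (11.05).

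The strain difference depended on the diet, by the interaction term of limma-voom at an adjusted p below 0.05, in these named genes. The values are changes between the diets, and in some genes the difference on WD itself had the other sign. More positive on WD were Trem2 (4.46), Cib3 (4.10), Orm1 (3.19), Cftr (3.10), Postn (2.95), Cyp39a1 (2.93), Asns (2.81), Chrna2 (2.77), Vcan (2.59), Ltbp2 (2.46), Pparg (2.43), Col1a1 (2.08), Cxcl13 (1.89), Col8a1 (1.64), Cd63 (1.55), Cd9 (1.42), Mgp (1.04), Col5a3 (1.03), H2-Q2 (0.96) and Irf5 (0.93). Without C57BL/6J CD replicate 2, Col1a1 (1.65, adjusted p = 0.0598) and Mgp (0.72, adjusted p = 0.130) no longer passed. More negative on WD were Cyp2b9 (-5.81), Mmd2 (-2.76), Sulf2 (-2.72), Cyp46a1 (-2.43), Plin4 (-2.21), Lpin1 (-2.18), Krt23 (-1.92), E2f7 (-1.88), Per1 (-1.85), Pck1 (-1.48), Abcg8 (-1.04), Abcg5 (-0.79), Ndufb8 (-0.68) and Ndufs5 (-0.31). Cyp2b9, a female-biased P450, was between 0.0811 and 1.47 CPM in PWK/PhJ and between 0.929 and 121 CPM in C57BL/6J on WD.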

How the results depend on the processing

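The number of WD DEGs stayed within 1.5 times of 10849 in all alternatives but cohort 1 alone (7098, with 3390 lower; 6770 on CD and 4647 in the same direction in both; 278 called list genes) and a minimum log2FC of 1 (4262). Genes whose strain difference depended on diet numbered 2101, but 952 with only the mice of the 2 strains, 22 in cohort 1 and 1249 in cohort 2, and the split of 1003 more positive to 1098 more negative became 1156 to 804 with upper-quartile scaling. With 0 counts in 1 strain and at least 20 in the other, 11 genes were near 0 in C57BL/6J in place of 32. The gap in unmapped reads was 5.06 points in cohort 1 (exact permutation test, adjusted p = 0.143) and 4.71 in cohort 2 (0.229), where the group sizes allow no smaller p. Leaving out 1 mouse gave 10453 to 10745 WD DEGs (5192 to 5452 higher, 5091 to 5403 lower), 10922 to 11159 CD DEGs, 7754 to 8228 in the same direction, 450 to 467 list genes, and 1710 (without PWK/PhJ WD replicate 2) to 3021 (without C57BL/6J WD replicate 3) diet-dependent genes. The gap of unmapped reads then ranged from 4.92 to 5.46 points, of reads at several places from 0.228 to 0.502, outside genes from 0.103 to 0.281, and ambiguous between genes from -0.0327 to 0.149. Signs that turned belonged to values that had not passed: Cyp7a1 (-0.11 with cohort as a covariate, -0.22 in cohort 1, -0.17 with sample weights, -0.17 to 0.20 leaving out a mouse), Fasn (-0.059 with weights, -0.068 to 0.23 leaving out a mouse), and in cohort 2 Ccl2 (0.13), Cd36 (0.10) and Trem2 (0.23). The cause was not tested. Counting each named gene once for each alternative, 3213 values kept direction and side of the threshold, 50 lost the call and 12 gained it. Beside those noted in the text, calls on WD lost in cohort 1 alone included Cfd, Cyp2b9, Fdps, Scd1 and Sulf2. Those lost in cohort 2 alone included Cyp2b9 and Saa1. Depth was similar in all libraries, and it limits what can be said of the genes near 0 most. No paired analysis was possible because the labels number no mice across groups.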
